A study of Mus musculus with 4 samples.

Results

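The synaptic genes *Snap25*, *Syt1*, *Vamp2*, *Syp*, *Syn1*, *Gria2*, *Dlg4* and *Camk2a* were followed through single-cell libraries of the mouse brain after stroke. The 8 genes were taken by symbol from the 31053 genes of the feature tables, and each symbol was found once. Their UMIs (unique molecular identifiers, each standing for 1 captured RNA molecule) were summed in each library and in cell classes set apart by marker genes that include none of the 8. The comparison asks whether microglia, the resident macrophages of the brain that the study links to synapses on day 7, held more synaptic RNA than endothelial and other non-neuronal cells of the same library.

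The series has 4 libraries, 1 per group. They came from male mice that were 8 weeks old by the labels and C57/BL6 by the study's methods. In 3 groups the mice had a transient middle cerebral artery occlusion (tMCAO) followed by 1, 3 or 7 days of reperfusion, and the control group had a sham operation, placed at day 7 in the design text. The ipsilateral hemisphere was digested with papain, and debris was removed on Percoll before the cells entered 10x Genomics droplets. How many mice each library pooled is not given in the sources used here. With 1 library per group there is no spread between animals and no p-value is given. All intervals below are exact at 95% and cover counting error only.

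Synaptic vesicles release transmitter when SNARE proteins on the vesicle and on the plasma membrane zip together, a step set off by a calcium sensor. On the receiving side, receptors for glutamate are held in place by scaffold proteins, and kinases bound there adjust their number. These genes are known for high expression in neurons, whose RNA can also leak from broken cells and enter droplets that hold another cell.

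On GRCm38 (GENCODE vM21), *Snap25* (ENSMUSG00000027273) lies at chr2:136713453-136782428, *Vamp2* (ENSMUSG00000020894) at chr11:69088490-69092384, *Syp* (ENSMUSG00000031144) at chrX:7638471-7653256, *Dlg4* (ENSMUSG00000020886) at chr11:70016942-70047522 and *Camk2a* (ENSMUSG00000024617) at chr18:60925618-60988152, all on the forward strand. *Syt1* (ENSMUSG00000035864) lies on the reverse strand at chr10:108497650-109010982.

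The matrices held 11744, 17780, 11983 and 17922 barcodes for sham, day 1, day 3 and day 7, with 69392755 to 104023002 UMIs per library. Limits on genes per cell (200 to 3000) and on mitochondrial UMIs (10%) left 44360 of 59429 barcodes, and 40470 of these (91.2%) were placed in 1 of 18 marker-gated classes. Between 33 and 88 barcodes were shared by any pair of libraries, at most 0.562% of the smaller one. Each class is named for the markers its cells hold ("microglia-like"), which is not proof of type.

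Most UMIs of the 8 genes lay in cells that the gene limit removed in the sham, day 1 and day 7 libraries, but not on day 3. Cells with over 3000 genes held 64.7% of these UMIs in the sham library, 75.7% on day 1, 44.1% on day 3 and 61.6% on day 7. Kept cells of the 2 neuronal classes (mature neuron-like and neuroblast-like) held 5.60%, 8.72%, 6.10% and 1.13% in the same order. All other kept cells together held 21.3%, 12.6%, 47.3% and 31.3%. Synaptic UMIs in kept cells were therefore found outside the neuronal classes more often than inside them in each library.

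**Figure D1:**
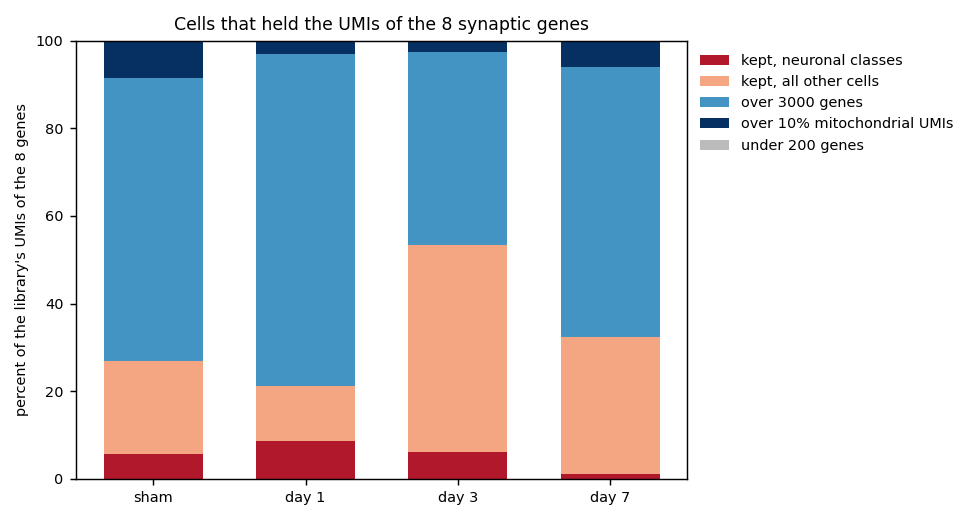
Percent of all UMIs of the 8 synaptic genes in each library (vertical axis) that lay in kept neuronal cells, other kept cells and removed barcodes. The share in cells over 3000 genes runs from 44.1% on day 3 to 75.7% on day 1.

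Among kept cells alone, the neuronal classes held 20.8% of the synaptic UMIs in the sham library (interval 19.9 to 21.8%, 1459 of 7002 UMIs). It was 41.0% in the day 1 library (40.3 to 41.6%). The day 3 library had 11.4% (10.6 to 12.3%) and the day 7 library 3.47% (3.06 to 3.92%). The genes differed in this respect. *Syt1* had 52.5%, 63.3%, 63.6% and 15.2% of its kept UMIs in neuronal classes, whereas *Vamp2* had 4.53%, 11.2%, 3.44% and 0.408%. Without the upper gene limit, the share over the 8 genes came to 43.2%, 62.5%, 11.2% and 32.7%.

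The libraries differed in level as a whole. Over all barcodes the 8 genes summed to 288 CPM (UMIs scaled to the total of the library or class) in the sham library, 1017 on day 1, 146 on day 3 and 245 on day 7. Levels of *Snap25* were 33.9, 278, 8.86 and 36.4 CPM. Those of *Syn1* were 8.27, 47.2, 2.57 and 6.37 CPM. *Vamp2* varied less, at 99.3, 153, 92.3 and 98.2 CPM. The day 1 library was thus the highest and the day 3 library the lowest for each of these genes.

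Mature neuron-like cells were few after filtering. The gene limit left 52 of 134 such cells in the sham library, 272 of 732 on day 1, 28 of 36 on day 3 and 3 of 38 on day 7. Levels in neurons are therefore given without the upper limit. For single genes the kept cells follow where the direction against sham turned on day 1 or day 3. With 3 kept cells, day 7 is not compared gene by gene in this way. Neurons of this gate held all 8 genes, the level being more than 2-fold above endothelial-like cells for 8 of 8 in the kept sham cells, where 20.9% of all genes tested were, and for 8 of 8 on day 1, where 24.1% were, and none below (14.7% and 12.9%; 10 CPM added to both levels, genes with at least 10 UMIs).

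Of the SNARE genes, *Snap25* (plasma membrane) stood at 1357 CPM in sham neurons (1296 to 1420), 2798 on day 1, 1112 on day 3 and 2808 on day 7. The day 1 ratio to sham was 2.06 (1.97 to 2.16). Day 3 gave 0.819 (0.710 to 0.942), and day 7 gave 2.07 (1.94 to 2.21). In the kept cells *Snap25* had 895 CPM in the sham library and 1014 on day 3, so its day 3 direction turned. *Vamp2*, its partner on the vesicle, was steadier, at 705, 845, 846 and 764 CPM. In the kept cells *Vamp2* had 604 CPM in the sham library and 560 on day 1, so its day 1 direction turned. Without the limit, day 1 and day 7 neurons thus held about the same *Snap25* level, while the *Vamp2* ratio to sham was at most 1.20.

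*Syt1*, the calcium sensor of fast release, was found at 2565, 2185, 1127 and 2701 CPM. Its ratio to sham was 0.852 (0.821 to 0.884) on day 1 and 0.439 (0.382 to 0.503) on day 3. In the kept cells *Syt1* had 1906 CPM in the sham library and 2126 on day 1, so its day 1 direction turned. *Syp*, an abundant protein of the vesicle membrane, had 732, 971, 511 and 800 CPM. *Syn1*, which tethers vesicles to each other in the reserve pool, had 235, 436, 245 and 289 CPM, with a day 1 ratio of 1.85 (1.65 to 2.09).

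On the receiving side, *Gria2*, the AMPA receptor subunit that limits calcium entry, had 1055, 992, 676 and 1097 CPM. In the kept cells *Gria2* had 1380 CPM in the sham library and 1579 on day 1, so its day 1 direction turned. *Dlg4*, which encodes the scaffold PSD-95, had 240, 264, 130 and 203 CPM. *Camk2a*, the kinase of excitatory synapses, had 469, 709, 95.1 and 541 CPM, and its day 3 ratio of 0.203 (0.121 to 0.320) was the lowest of the 8. Without the gene limit the day 3 level was below that of the sham library for 6 of the 8 genes, with *Vamp2* and *Syn1* as the exceptions. In the kept cells *Snap25* and *Vamp2* were the exceptions. *Syn1* was below sham there, at 198 against 208 CPM (23 and 45 UMIs).

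More than 2-fold above sham without the gene limit was 1 gene of 8 on day 1 (*Snap25*, 0.601% of all genes tested) and 1 on day 7 (*Snap25* again, 0.949%). On days 1 and 7 none was more than 2-fold below (1.54% and 1.41%), and on day 3 none above (3.97%). More than 2-fold below sham on day 3 were 2 of 8 (*Syt1* and *Camk2a*, 11.5% of all genes tested). Summed, the 8 genes had 7359 CPM in sham neurons, 9201 on day 1, 4742 on day 3 and 9203 on day 7. The ratios to sham were 1.25 (1.22 to 1.28), 0.644 (0.602 to 0.689) and 1.25 (1.21 to 1.29). With clusters in place of the gate, in kept cells, the day 7 ratio was 1.06 (0.908 to 1.22), and in the 3 kept cells of the gate it was 1.63 (1.36 to 1.95). In the kept cells the day 1 ratio was 1.51 (1.42 to 1.60), and *Snap25*, *Syp*, *Syn1* and *Camk2a* (4 of 8) were more than 2-fold above against 12.6% of all genes tested, and none below against 5.18%. A list of 8 neuronal genes outside the synapse (*Meg3*, *Stmn2*, *Stmn3*, *Tubb3*, *Ina*, *Map2*, *Uchl1* and *Elavl3*) had ratios of 0.876, 0.540 and 1.06 without the limit.

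Neurons of different transmitter types made up these groups. A cell with a UMI of the vesicular glutamate transporters *Slc17a7* or *Slc17a6* and none of *Slc32a1*, *Gad1* or *Gad2*, the genes of GABA loading and synthesis, was counted as glutamatergic, and the reverse as GABAergic. This split was chosen after the levels had been seen. Glutamatergic cells were 38.8% of mature neuron-like cells in the sham library (52 of 134), 77.3% on day 1 (566 of 732), 11.1% on day 3 (4 of 36) and 60.5% on day 7 (23 of 38). GABAergic cells were 53.0%, 17.6%, 83.3% and 39.5%.

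The libraries were then compared within a transmitter type. In glutamatergic cells the 8 genes summed to 9188 CPM in the sham library, 9762 on day 1 and 10348 on day 7, so that the ratios to sham were 1.06 (1.04 to 1.09) and 1.13 (1.09 to 1.17). In GABAergic cells the sums were 5336, 6433, 4524 and 6944 CPM, with ratios of 1.21 (1.15 to 1.26), 0.848 (0.780 to 0.921) and 1.30 (1.23 to 1.38). Without the gene limit, the day 3 ratio was thus 0.644 over all neurons and 0.848 among GABAergic cells. The 4 glutamatergic cells of that day had 5271 CPM (0.574 of sham, 0.480 to 0.680). On day 1 the glutamatergic ratio lay nearer to 1 than the 1.25 over all neurons, while the GABAergic ratio on day 7 lay farther from 1. *Snap25* differed within a type as well, with 1755, 3032 and 3287 CPM in glutamatergic cells of the sham, day 1 and day 7 libraries. The kept cells alone gave another order in the sham library, where 35 GABAergic cells had 6447 CPM. There, 12 sham glutamatergic cells had 5006 CPM and 183 day 1 cells had 9974 CPM, a ratio of 1.99 (1.75 to 2.28). Kept GABAergic cells had ratios to sham of 1.07 (0.987 to 1.16) on day 1 and 0.644 (0.574 to 0.722) on day 3. That day 3 ratio was no nearer to 1 than the 0.667 (0.598 to 0.742) over all kept neurons. The part of this mix in the levels of single genes was not tested.

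**Figure D2:**
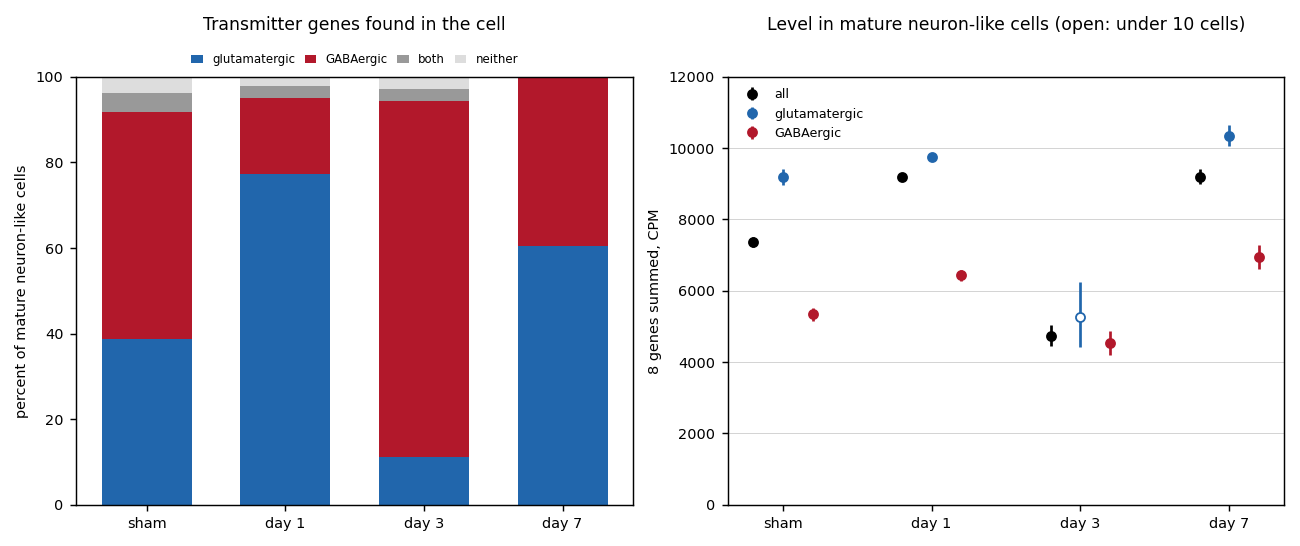
Left, percent of mature neuron-like cells (no upper gene limit) by the transmitter genes found in the cell; right, CPM of the 8 synaptic genes summed, with exact 95% intervals, in all such cells, in glutamatergic and in GABAergic cells. GABAergic cells lie below glutamatergic cells in the sham, day 1 and day 7 libraries, and their share is 83.3% on day 3 and 17.6% on day 1.

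The other synaptic genes were read from lists of 24 presynaptic and 24 postsynaptic genes. On day 1, 1 presynaptic gene was above and 1 below 2-fold in neurons without the gene limit, *Stx1a*, a SNARE of the plasma membrane (2.25-fold, 1.96 to 2.59) and the GABA transporter *Slc32a1* (0.384, 0.333 to 0.445). Of the postsynaptic genes *Nrgn*, a calmodulin-binding protein of excitatory neurons, was above (2.80-fold, 2.70 to 2.91). Over all genes tested, 0.601% were above and 1.54% below on that day. On day 3, 10 presynaptic and 6 postsynaptic genes were below 2-fold (11.5% of all genes) and none above (3.97%), with *Slc17a7* at 0.0640 (0.0319 to 0.115) and *Nrgn* at 0.191 (0.150 to 0.240). On day 7, 0 of the 48 genes passed 2-fold in either direction with 10 CPM added, where 0.949% of all genes tested were above and 1.41% below. The day 3 median log2 ratios were -0.61 and -0.37, against -0.07 over all genes tested.

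Neuroblast-like cells, young neurons with *Dcx* and *Sox11* among their markers, held far less. The 8 genes summed to 976, 821, 843 and 785 CPM in 39, 176, 50 and 43 kept cells. The ratio of mature neuron-like to neuroblast-like cells was 6.13 (5.20 to 7.26) in the sham library and 10.98 (9.96 to 12.1) on day 1. Day 3 gave 4.73 (3.94 to 5.71). Without the gene limit it was 9.98, 13.1, 6.21 and 16.1 in order from sham to day 7. For *Camk2a* the ratio on day 1 was 79.4 (36.4 to 217), and for *Vamp2* 4.21 (3.27 to 5.49). *Gria2* had 536, 357, 276 and 464 CPM in neuroblast-like cells, and mature neuron-like cells had 2.57, 4.43 and 2.56 times that level in the sham, day 1 and day 3 libraries. Without the gene limit, *Dlg4* was the gene of the 8 more than 2-fold below sham in neuroblast-like cells on day 1 (60.3 and 17.7 CPM, 1 of 8, 2.76% of all genes tested), and 0 of 8 were above (2.72%). The *Dlg4* values rest on 17 and 12 UMIs, and the gene was no longer counted at a minimum of 50 UMIs (1.51% of all genes below). On day 3 none was above (4.8%) or below (3.84%), and on day 7 likewise (5.7% and 2.87%), with 7 of the 8 genes at 10 UMIs or more.

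Among the 8, *Gria2*, *Vamp2* and *Dlg4* were found in some non-neuronal classes at levels well above those of other classes of the same library.

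*Gria2* was detected in astrocyte-like cells at 928 CPM in the sham library (65 cells, 169 UMIs), 985 on day 1 and 819 on day 3. Oligodendrocyte progenitor-like cells had 737 CPM on day 1 (209 cells). Endothelial-like cells had 6.29, 19.7, 1.25 and 4.25 CPM and microglia-like cells 7.21, 6.47, 2.43 and 2.07 CPM. After each cell had been thinned to 1000 UMIs, 53.6%, 58.6% and 54.1% of astrocyte-like cells held a *Gria2* UMI in the sham, day 1 and day 3 libraries, against 0.723%, 1.98% and 0.163% of endothelial-like cells. *Gria2* was 74.1% of the synaptic UMIs of astrocyte-like cells in the sham library and 4.58% of those of endothelial-like cells.

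*Vamp2* varied little between libraries in endothelial-like, smooth muscle-like and oligodendrocyte-like cells. Endothelial-like cells had 81.8, 81.4, 86.3 and 81.7 CPM, smooth muscle-like cells 140, 144, 158 and 126, and oligodendrocyte-like cells 150, 168, 162 and 131. Pericyte-like cells differed more, with 104.5 CPM in the sham library (82.6 to 130), 176 on day 1 (151 to 203), 142 on day 3 and 127 on day 7. In the same libraries *Snap25* in endothelial-like cells was 16.8, 62.2, 2.87 and 12.97 CPM. The day 1 ratio to sham in endothelial-like cells was 0.995 (0.922 to 1.07) for *Vamp2* and 3.70 (3.23 to 4.25) for *Snap25*. *Vamp2* made up 59.6% of the synaptic UMIs of sham endothelial-like cells and 77.8% of those of smooth muscle-like cells. Its share differed by class and library, at 32.6% in endothelial-like and 26.7% in microglia-like cells on day 1 and 10.1% in astrocyte-like cells of the sham library.

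*Dlg4* was found in astrocyte-like cells at 82.3, 46.8 and 42.4 CPM (sham, day 1 and day 3) and in pericyte-like cells at 17.4, 32.2, 31.7 and 31.1 CPM, against 4.47, 8.23, 1.68 and 3.19 CPM in endothelial-like cells. On day 3 pericyte-like cells had 45 *Dlg4* UMIs in 649 cells. Oligodendrocyte-like cells had *Syp* at 16.02, 22.3, 28.0 and 13.7 CPM, and their day 3 value was the highest although that library had the lowest level over all barcodes. 

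Read against endothelial-like cells of the same library, the 8 genes passed 2-fold in few other vascular or glial classes. In oligodendrocyte-like cells 0 of 8 were above in the sham library (8.66% of all genes tested) and on day 1 (7.97%), *Syp* alone on day 3 (9.12%) and *Gria2* alone on day 7 (8.54%). In pericyte-like cells 0 of 8 were above in the sham library (8.95%), *Vamp2* and *Dlg4* on day 1 (8.68%), and *Dlg4* alone on day 3 (9.6%) and day 7 (8.91%). In smooth muscle-like cells 0 of 8 were above in any library (7.21%, 6.35%, 7.37% and 6.86%). None of the 8 was more than 2-fold below in these classes, against 16%, 13.9%, 15.4% and 15.3% of all genes in oligodendrocyte-like cells. The same background was 8.74%, 7.36%, 8.89% and 8.39% in pericyte-like cells and 11.6%, 10.5%, 11.5% and 10.8% in smooth muscle-like cells. At 1 CPM added, oligodendrocyte-like cells had 1, 1, 4 and 3 of 8 above (14.4%, 13.5%, 14.7% and 14.0% of all genes). Below there were 1, 1, 0 and 2 (30.0%, 25.5%, 29.2% and 28.4%). Smooth muscle-like cells had 0, 0, 1 and 1 above (12.4%, 11.1%, 12.7% and 12.1%). Below were 2, 1, 0 and 0 (23.9%, 23.8%, 24.4% and 22.3%). Pericyte-like cells had 2, 2, 3 and 2 above (16.4%, 16.1%, 16.6% and 15.9%) and none below (17.8%, 14.9%, 16.6% and 15.8%).

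In astrocyte-like cells 5 of 8 genes were above in the sham library (*Syt1*, *Syp*, *Syn1*, *Gria2* and *Dlg4*, 15.1%), and *Gria2* and *Dlg4* on day 1 (14.3%) and day 3 (14.1%). None was below (16.4%, 12.6% and 16.1%). The sham values of *Syt1*, *Syp* and *Syn1* rest on 7, 5 and 3 UMIs. In oligodendrocyte progenitor-like cells on day 1, *Syp*, *Gria2* and *Dlg4* were above (17.8%) and none below (10.2%). Neuroblast-like cells had *Syt1* and *Gria2* above on day 1 (12.7%) and 7 of 8 on day 3 (14.0%), all but *Camk2a*, with none below (15.6% and 18.4%).

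Choroid plexus-like and ependymal-like cells lay lower on day 1. On day 1, *Snap25*, *Syt1*, *Syp*, *Syn1* and *Gria2* were more than 2-fold below in choroid plexus-like cells (5 of 8, 24.3% of all genes) and none above (6.19%), and *Snap25* was below in ependymal-like cells (12.5%), with none above (16.3%). In the sham library 0 of 8 were above (8.5%) or below (26.8%) in choroid plexus-like cells. On day 7 *Dlg4* was above there (8.75%) and *Snap25*, with 0 UMIs, below (25.3%). With 1 CPM added, 4 of 8 were above and 3 below in choroid plexus-like cells of the sham library (13.9% and 49.3% of all genes), and 6 of 8 were below in ependymal-like cells on day 1 (25.6%).

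**Figure D3:**
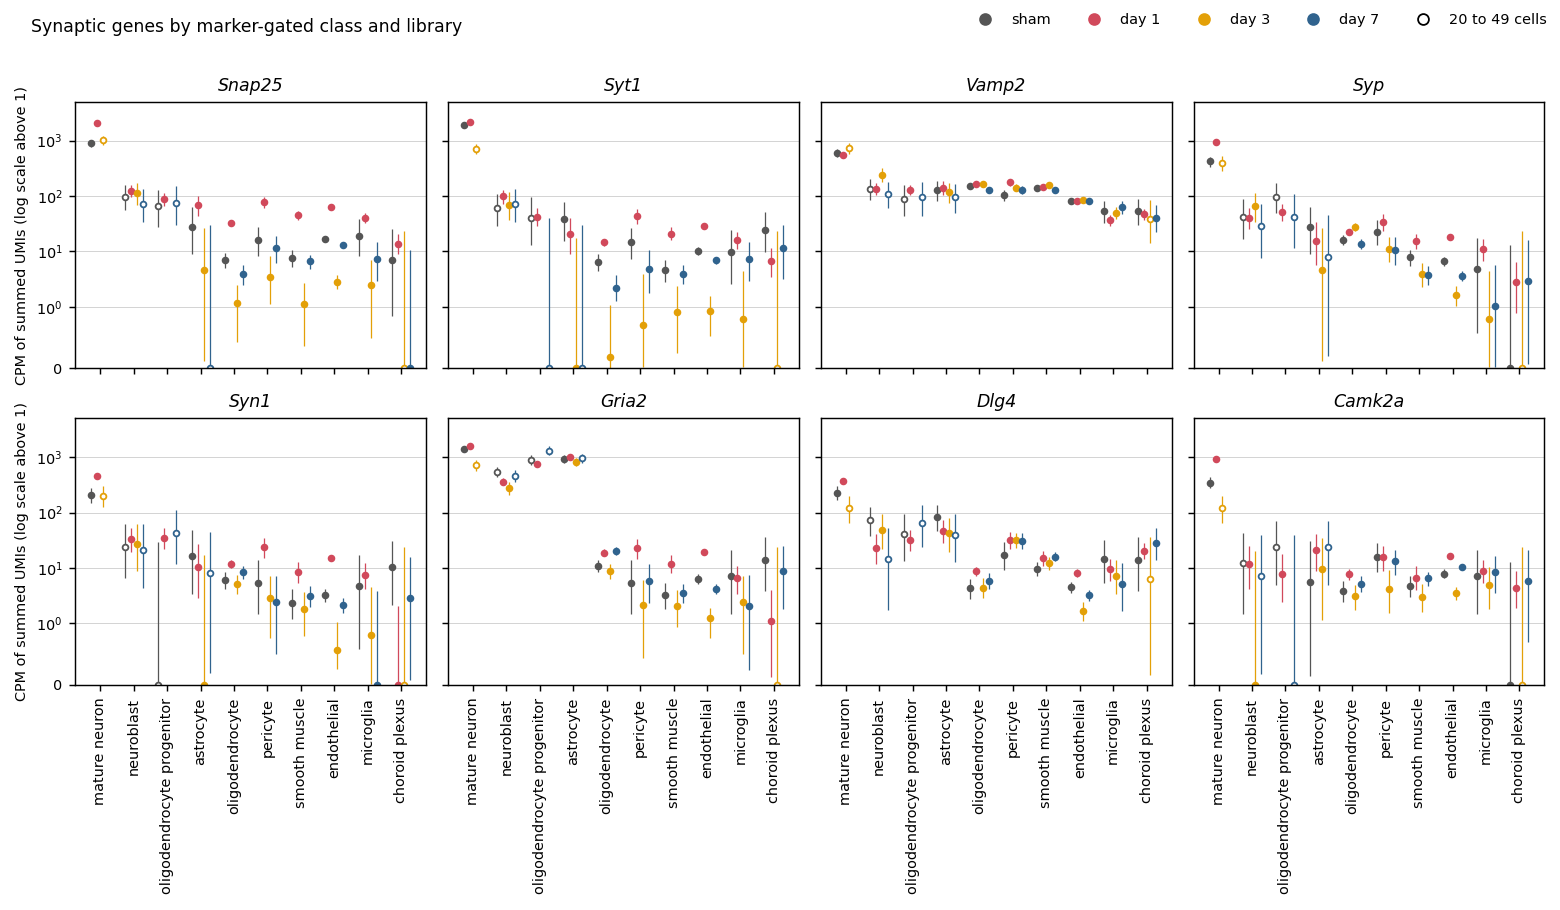
CPM of summed UMIs (logarithmic above 1) of each synaptic gene in 10 marker-gated classes, 1 point per library with its exact 95% interval, open where the class had 20 to 49 cells; classes under 20 cells are left out. *Gria2* lies between 819 and 985 CPM in astrocyte-like cells and *Vamp2* between 81.4 and 86.3 CPM in endothelial-like cells, while *Snap25* and *Syt1* have their lowest endothelial level on day 3.

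*Syn1* and *Gria2* are shown with their promoters, because both hold a stretch like the same element near the start and yet differ in astrocyte-like cells. *Syn1* (ENSMUSG00000037217) lies on the reverse strand at chrX:20860511-20921004 and *Gria2* (ENSMUSG00000033981) on the reverse strand at chr3:80681450-80802835 (GRCm38, GENCODE vM21). Promoter windows of 300 bases, from 250 before to 50 after the start, are RefSeq sequences of GRCm38.p6 and read in the direction of the gene. They span chrX:20920869-20921168 and chr3:80802786-80803085. Capitals mark the stretch most like the RE1 element, the site of the repressor REST, which silences neuronal genes in other cell types. RE1 was searched on both strands as the blocks TTCAGCACC and GGACAGCGC, 2 bases apart. In *Gria2* the match is on the opposite strand, so the capitals show its reverse complement.
Syn1: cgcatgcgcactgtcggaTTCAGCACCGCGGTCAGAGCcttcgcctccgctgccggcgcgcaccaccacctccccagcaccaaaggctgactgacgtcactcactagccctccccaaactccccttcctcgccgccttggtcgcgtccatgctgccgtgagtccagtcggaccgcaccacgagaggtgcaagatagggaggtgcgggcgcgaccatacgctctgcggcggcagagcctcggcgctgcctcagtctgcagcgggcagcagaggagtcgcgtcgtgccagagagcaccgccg
Gria2: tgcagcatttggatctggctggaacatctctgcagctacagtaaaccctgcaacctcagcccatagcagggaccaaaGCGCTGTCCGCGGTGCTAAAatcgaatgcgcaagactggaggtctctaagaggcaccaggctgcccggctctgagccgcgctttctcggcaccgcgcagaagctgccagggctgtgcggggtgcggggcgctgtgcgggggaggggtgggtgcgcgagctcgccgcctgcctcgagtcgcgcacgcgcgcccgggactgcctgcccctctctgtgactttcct

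Counted from 1 at the first base of the first block, with the motif's base first, the *Syn1* stretch differs from the motif by A14T and C18A and the *Gria2* stretch by C3T. They begin at positions -232 and -173 from the start. Of 32851 promoter windows searched, 12 (0.0365%) came within 2 mismatches. TTCAGCACC alone was found in 0.371% of windows and GGACAGCGC alone in 0.405%. Windows were found for 5 of the 8 genes, and those of *Syt1*, *Dlg4* and *Syp* had 6 to 9 mismatches. A match of letters is a description of this window and does not show that the factor binds. In astrocyte-like cells of the sham library, *Syn1* had 16.5 CPM (3 UMIs) and *Gria2* 928 CPM.

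For *Snap25* and *Syt1* the day 1 level was the highest and the day 3 level the lowest in endothelial-like, smooth muscle-like, pericyte-like, oligodendrocyte-like and microglia-like cells, as over all barcodes. The sham and day 7 levels did not always keep the order of the library, as *Snap25* in endothelial-like cells was lower on day 7 than in the sham library. The 7 genes other than *Vamp2*, summed, had 188 CPM over all barcodes of the sham library, 864 on day 1, 54.1 on day 3 and 147 on day 7. Endothelial-like cells had 55.5, 169, 12.5 and 43.6 CPM of them. Smooth muscle-like cells had 40.0, 124, 25.001 and 43.4 CPM, and microglia-like cells 67.3, 99.6, 19.5 and 31.0 CPM. Day 1 was the highest and day 3 the lowest for this sum too in each of these classes.

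**Figure D4:**
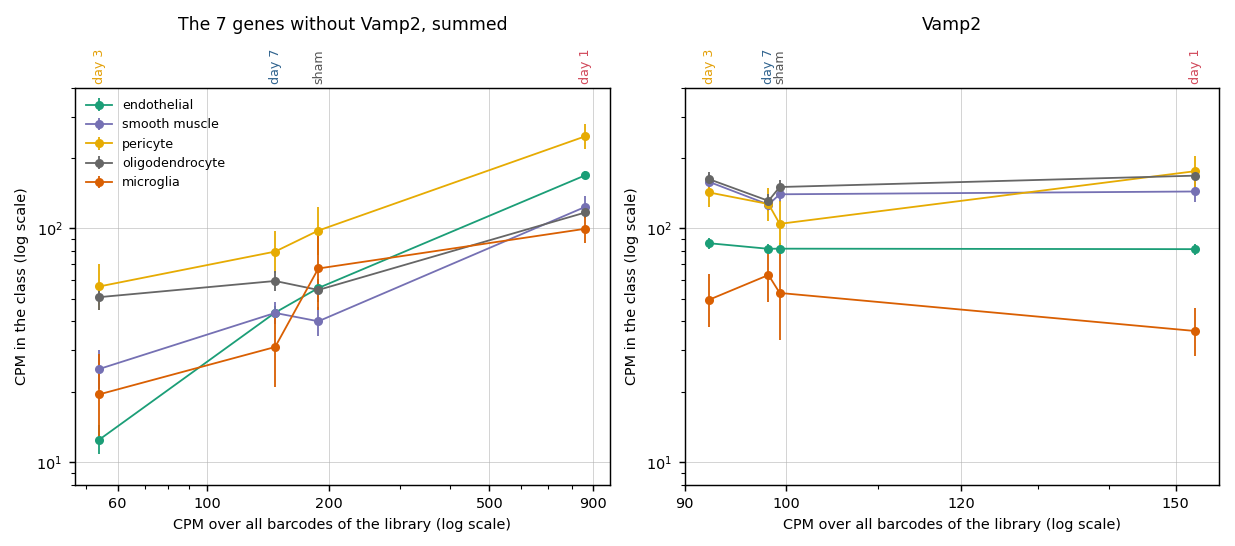
CPM in 5 non-neuronal classes (vertical, log scale, exact 95% intervals) against CPM over all barcodes of the same library (horizontal, log scale), for the 7 genes without *Vamp2* (left) and for *Vamp2* (right); lines join the 4 libraries of a class. On the left endothelial-like cells go from 12.5 CPM on day 3 to 169 CPM on day 1, and on the right they stay between 81.4 and 86.3 CPM.

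These UMIs were spread thinly. In the sham library, 3134 of 4767 endothelial-like cells held no UMI of the 8 genes, 1241 held 1 and 12 held 5 or more. Of 126 microglia-like cells, 90 held none, 26 held 1 and none held 5. *Ttr*, a choroid plexus gene taken as a reference for free RNA, had 1803, 2838, 2537 and 1156 CPM in endothelial-like cells and 1634, 1630, 1947 and 820 CPM in microglia-like cells.

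Per total UMIs of the kept cells, the sum of the 8 genes was no higher in microglia-like than in endothelial-like cells in any library. The 8 genes summed to 120 CPM in 126 microglia-like cells of the sham library, 136 in 449 cells on day 1, 68.9 in 344 cells on day 3 and 94.1 in 255 cells on day 7. Endothelial-like cells had 137, 250, 98.8 and 125 CPM. The ratio was 0.875 in the sham library (0.647 to 1.16) and 0.543 on day 1 (0.479 to 0.614). Day 3 gave 0.698 (0.554 to 0.868) and day 7 gave 0.752 (0.603 to 0.926). The interval included 1 in the sham library and lay below 1 on days 1, 3 and 7. With clusters in place of the gate the day 7 ratio was 0.937 (0.775 to 1.12). Per cell in place of per total UMIs, the 8 genes gave 0.977 (0.862 to 1.10) on day 1, while day 3 gave 0.874 (0.694 to 1.09) and day 7 gave 1.13 (0.910 to 1.40). The direction depended on *Vamp2* in 2 libraries, since the 7 other genes gave 1.21 in the sham library (0.801 to 1.76), 0.590 on day 1 (0.509 to 0.681), 1.56 on day 3 (0.978 to 2.39) and 0.713 on day 7 (0.478 to 1.02). With all 8 genes, *Vamp2* included, the sham ratio was also above 1 in other settings. It was 1.06 (0.791 to 1.40) without the upper gene limit and 1.12 as a mean of per-cell CPM. Against the mean level of all non-neuronal classes with at least 50 cells, endothelial-like included, the ratio was 0.394, 0.318, 0.204 and 0.649 in order from sham to day 7. Astrocyte-like cells, high in *Gria2*, entered this mean in the first 3 libraries and, with 42 cells, not on day 7. Oligodendrocyte progenitor-like cells, also high in *Gria2*, entered it on day 1 alone (209 cells), and erythrocytes in the sham library alone (72 cells). The classes in the mean thus differed between libraries.

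The same ratio for *Ttr* was 0.906, 0.575, 0.767 and 0.710. The *Ttr* ratio and that of the sum of the 8 genes lay within 1.5 times of each other in each library. For the 7 genes without *Vamp2* this did not hold on day 3, as their ratio was 1.56 there. The part of free RNA in the synaptic UMIs was not tested. None of the 8 genes passed 2-fold above endothelial-like cells in any library, where 8.09%, 7.61%, 8.35% and 8.07% of all genes tested did. None passed 2-fold below either, against 17.4%, 14.5%, 15.0% and 16.3%. These counts depend on the CPM added. With 1 CPM added in place of 10, *Dlg4* passed above in the sham library and on day 3 (12.8% and 13.01% of all genes), and none on days 1 and 7 (12.1% and 12.5%). *Vamp2* and *Gria2* then passed below on day 1 and *Syp* and *Syn1* on day 7, against 31.7% and 33.9% of all genes, and none in the sham library (36.6%) or on day 3 (30.8%). The median log2 ratio of the 8 genes was 0.02, -0.52, 0.01 and -0.26, and that of all genes tested was -0.26, -0.21, -0.23 and -0.24.

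By gene, *Snap25* had 8, 81, 3 and 7 UMIs in microglia-like cells, or 19.2, 40.3, 2.43 and 7.24 CPM. *Syt1* had 4, 32, 1 and 7 UMIs, *Syp* 2, 22, 1 and 1, and *Syn1* 2, 15, 1 and 0. On the receiving side *Gria2* had 3, 13, 3 and 2 UMIs, *Camk2a* 3, 18, 6 and 8, and *Dlg4* 6, 19, 9 and 5. The 0 UMIs of *Syn1* on day 7 allow a ratio of up to 1.87 to endothelial-like cells. Only *Dlg4* had an interval above 1 without added CPM, with ratios of 3.23 (1.15 to 7.38) in the sham library and 4.34 (1.80 to 9.503) on day 3. On day 7 it was 1.62 (0.512 to 3.97). *Vamp2* was lower in microglia-like cells, at 52.9, 36.3, 49.5 and 63.1 CPM, and its ratio ran from 0.446 (0.348 to 0.565) on day 1 to 0.772 (0.588 to 0.997) on day 7.

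Counted per cell in place of per total UMIs, the 7 genes without *Vamp2* gave 0.222, 0.445, 0.0698 and 0.118 UMIs per microglia-like cell and 0.185, 0.420, 0.0357 and 0.109 per endothelial-like cell. Median depths were 1936, 3688, 2683 and 3071 UMIs in microglia-like cells and 2847, 1831, 2199 and 1978 in endothelial-like cells. The per-cell ratio was 1.20 (0.793 to 1.75), 1.06 (0.915 to 1.23), 1.96 (1.22 to 2.99) and 1.08 (0.722 to 1.55). On day 3 the interval lay above 1, on 24 UMIs in 344 microglia-like cells, of which *Dlg4* had 9 and *Camk2a* 6. On day 7 the per-cell levels differed by less than counting error.

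**Figure D5:**
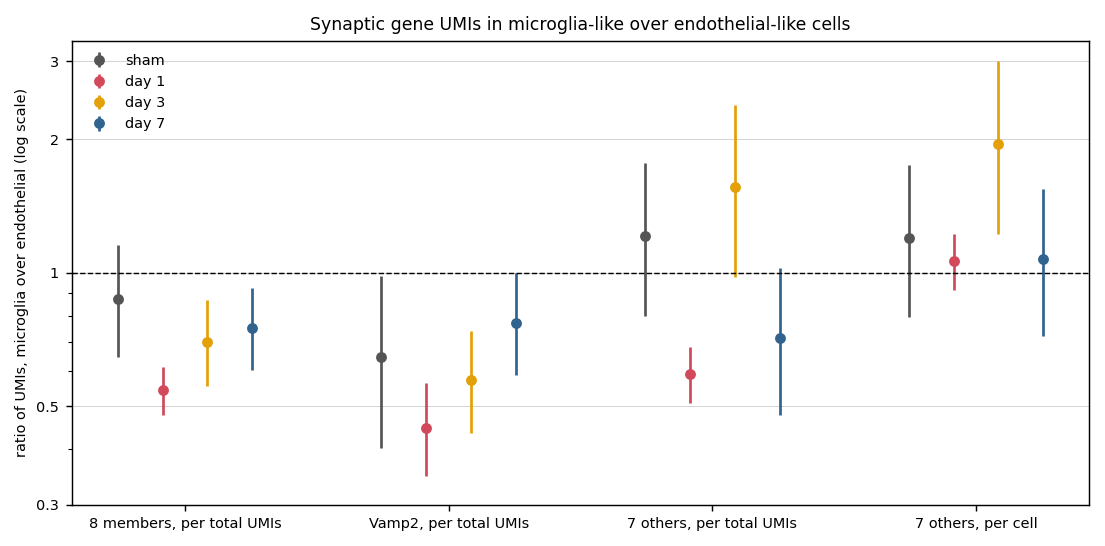
Ratio of synaptic UMIs in microglia-like over endothelial-like cells (log scale, exact 95% intervals, dashed line at 1) for each library, over the 8 genes, *Vamp2* alone and the 7 others, per total UMIs or per cell. The day 7 ratio is 0.752 for the 8 genes per total UMIs and 1.08 for the 7 others per cell.

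At 1000 UMIs per cell, 7.22% of microglia-like cells held a UMI of any of the 8 genes in the sham library (7 of 97, 2.95 to 14.3%), 14.4% on day 1, 7.45% on day 3 and 9.5% on day 7 (19 of 200, 5.82 to 14.4%). In endothelial-like cells the shares were 14.3%, 22.7%, 10.4% and 12.5%. Thinning left out 29, 67, 89 and 55 shallower microglia-like cells and 618, 1585, 688 and 1553 endothelial-like cells. Unthinned, they were 28.6%, 41.9%, 20.6% and 27.8% in microglia-like cells and 34.3%, 43.4%, 24.3% and 25.6% in endothelial-like cells. At 1000 UMIs per cell the share of microglia-like cells was the lower of the pair in each library, whereas unthinned it was the higher on day 7. With 500 UMIs drawn from every cell it was lower in the sham, day 1 and day 3 libraries (7.14%, 10.5% and 2.91%, against 8.41%, 16.6% and 5.83%). On day 7 it was 7.84% (4.86 to 11.9%) against 7.44% (6.90 to 8.00%), within counting error. Such shares were not above those of endothelial-like cells by more than counting error.

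Across days, the ratio to sham in microglia-like cells was 1.13 on day 1 (0.834 to 1.56), 0.574 on day 3 (0.400 to 0.831) and 0.784 on day 7 (0.549 to 1.13). The day 1 ratio was 0.775 (0.578 to 1.06) without the gene limit. Without *Vamp2* day 1 had 1.48 (0.993 to 2.28), day 3 had 0.289 (0.161 to 0.518) and day 7 had 0.461 (0.266 to 0.801), the intervals of days 3 and 7 lying below 1. As a mean of per-cell CPM day 3 had 0.375. Endothelial-like cells had 1.82 (1.73 to 1.92), 0.719 (0.674 to 0.768) and 0.912 (0.862 to 0.965). In microglia-like cells 0 of 8 genes were more than 2-fold above sham on any day (6.67%, 3.03% and 3.34% of all genes tested were), and *Snap25* alone was below, on day 3 (1.63%, against 5.91% on day 1 and 1.46% on day 7). Only 3 of the 8 genes on day 3 and 5 on day 7 had the 10 UMIs needed. At 1 CPM added, microglia-like cells had 2, 0 and 0 of 8 above on days 1, 3 and 7 (14.7%, 9.86% and 9.22% of all genes). Below were 0, 1 and 2 (14.5%, 5.14% and 4.98%). At a minimum of 50 UMIs *Snap25* was no longer counted on day 3 (1.62% of all genes below). In endothelial-like cells *Snap25* alone was above on day 1 (0.578%) and alone below on day 3 (0.3%). With 1 CPM added, 5 of 8 were above on day 1 (*Snap25*, *Syt1*, *Syp*, *Syn1* and *Gria2*, 3.28% of all genes) and the same 5 and *Dlg4* below on day 3 (1.71%). Backgrounds there were 0.809% below on day 1, 0.78% above on day 3, and 0.216% above and 0.277% below on day 7. These comparisons share the sham library. The study names *Itgb2*, an integrin of leukocytes, for its microglia subclusters. Thinned microglia-like cells with an *Itgb2* UMI had 4 synaptic UMIs in 29 cells on day 7 and those without had 23 in 171, a ratio of 1.03 (0.258 to 3.00).

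Among the other synaptic genes, *Syngr1*, whose product synaptogyrin is a vesicle membrane protein of neurons and other cells, stood apart in microglia-like cells. Its level was 356 CPM in the sham library, 613 on day 1, 705 on day 3 and 529 on day 7. Endothelial-like cells had 3.27, 12.5, 3.43 and 3.23 CPM, so that the ratio was 109 (78.7 to 152), 49.2 (42.4 to 57.3), 206 (157 to 275) and 164 (128 to 212). Mature neuron-like cells of the sham library without the gene limit had 247 CPM. With *Syngr1* the presynaptic list summed to 522, 781, 783 and 636 CPM in microglia-like cells.

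Few other list genes passed 2-fold. Of the presynaptic list 22, 24, 15 and 23 genes had the 10 UMIs needed, and of the postsynaptic list 24, 24, 12 and 24. Above 2-fold were 1, 1, 2 and 1 presynaptic genes (*Syngr1*, and on day 3 also *Unc13a*) and no postsynaptic gene. Of all genes tested 8.09%, 7.61%, 8.35% and 8.07% were above. Below 2-fold were 2, 3, 3 and 2 presynaptic and 1, 1, 1 and 2 postsynaptic genes, beside the 17.4%, 14.5%, 15.0% and 16.3% of all genes below. The median log2 ratio was -0.19, -0.18, -0.08 and -0.13 for the presynaptic and -0.13, -0.23, -0.13 and -0.13 for the postsynaptic list. Over all genes tested it was -0.26, -0.21, -0.23 and -0.24. *Stx1a* had a ratio of 0.108 (0.0222 to 0.317) on day 7. *Shank3*, a postsynaptic scaffold, had 68.5, 66.0, 80.0 and 80.2 CPM in endothelial-like cells and 0, 0, 0.811 and 3.10 CPM in microglia-like cells. On day 7 its ratio was 0.0387 (0.00797 to 0.113), on 3 UMIs. Genes of the synaptic lists were thus found in endothelial-like cells (*Shank3*) as well as in microglia-like cells (*Syngr1*).

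Genes that varied most like the mean of the 8 over 36 points of class and library were *Arpp21* (Pearson r 0.96), *Gm38393* (0.95), *Frrs1l* (0.95), *Scn8a* (0.95) and *Lmtk3* (0.95), followed by *Atp6v1g2*, *Cnr1*, *Erc2* and *Lonrf2* (0.94 to 0.95), out of 10313 genes. The points share libraries and depth, and neurons are the extreme points, so r is a description. Against the mean of the other 7, r was 0.95 for *Syn1*, 0.94 for *Syp*, 0.93 for *Syt1* and 0.92 for *Snap25*. It was 0.86 for *Dlg4*, 0.82 for *Camk2a*, 0.74 for *Gria2* and 0.69 for *Vamp2*. Of the genes found at raised levels in some non-neuronal classes, *Vamp2* and *Gria2* were the least like the rest, while *Dlg4* was more alike than *Camk2a*.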

How the data were processed

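Per the file headers, the deposited UMI counts per gene and barcode came from Cell Ranger 4.0.0, filtered to called cells and not normalized by the authors. The submitters' processing notes list Cell Ranger 3.0.1, Seurat 4.1.2 and the human build GRCh38, but the deposited gene IDs were mouse IDs. Of 31053 of them, 30934 were found in GENCODE vM21. CPM, percents and ratios were computed here from the counts.

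The study's limits of 200 to 3000 genes per cell and 10% mitochondrial UMIs were applied. Microglia-like cells were 1.67%, 3.36%, 3.67% and 1.82% of kept cells from sham to day 7. The study reports more cells after its limits and a far larger microglia share in every group. The microglia-like class here is therefore not the study's set of microglia. A cell entered a class when it held at least 3 distinct markers of it and 2 times as many as of any other class, and for related classes more than of the other. Erythrocytes needed 50% hemoglobin UMIs. The cut-offs were set on cell numbers and marker overlap, after the data had been seen. Of the ungated cells, 562 were 1 marker short and 3073 held markers of several classes. The 8 genes, the lists and the markers were chosen with earlier results of these data known.

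UMIs were summed per class and library. Sums have exact Poisson intervals, ratios exact conditional intervals and shares exact binomial (Clopper-Pearson) intervals at 95%. Classes under 50 cells were left out of class comparisons other than those of mature neuron-like and neuroblast-like cells. A gene counted as past 2-fold with 10 CPM added to both levels and at least 10 UMIs in both groups together. Thinning drew 1000 UMIs per cell without replacement and left out shallower cells. Doublets were kept in the main analysis. Scrublet's own threshold marked 0.225%, 4.61%, 0.032% and 0.0142% of kept cells, in order of time from sham to day 7, and had not worked in most of them, so the alternative without doublets removed the highest scores at 0.8% per 1000 barcodes (710, 1903, 899 and 2014 cells).

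Genes named are the 8 in each class, at most 4 of each list per comparison by largest and smallest ratio, and the 10 most alike by Pearson correlation of log2(CPM + 10). Some results that this rule covers are not reported here. Overlapping genes in the files are *Timp1* and *Araf* (opposite strand to *Syn1*), *Gm14703* (opposite to *Syp*) and *Gm5136* (same strand as *Syt1*), so these counts are uncertain there. Whether the counts use strand is not given in the sources used here. The calculations were tested on simulated data. Python 3.11.15, numpy 2.4.6, pandas 2.3.3, scipy 1.17.1, scanpy 1.11.5 and matplotlib 3.10.9 were used. Alternatives changed the gene, mitochondrial and gate limits, doublets, clusters in place of the gate, the members summed, and for the counts past 2-fold the CPM added (1) and the UMI minimum (50).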

Additional observations from a re-analysis of the deposited data

Results flagged for a closer look

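Barcodes with over 3000 genes, which no class comparison among kept cells uses, held more synaptic RNA on 2 days than in the sham library. The 8 genes summed to 1405 CPM in these barcodes on day 1 (1395 to 1415, 3452 barcodes) and to 347 CPM on day 7 (341 to 353, 2647 barcodes). The sham library had 332 CPM there (327 to 337, 2856 barcodes) and the day 3 library 132 CPM. The share of mature neuron-like cells that the limit removed was 61.2% in the sham library, 62.8% on day 1, 22.2% on day 3 and 92.1% on day 7. The part of the mix of cell classes in these sums was not tested.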

How the results depend on the processing

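Among values for the main comparisons under the alternatives, 78 stayed within the counting interval, 41 moved beyond it and 3 reversed. A ratio counts as reversed here only where the main interval excluded 1, so that turns of ratios whose interval held 1, such as the sham ratio of microglia-like to endothelial-like cells, are among the first 2 counts. Leaving out *Vamp2* and leaving out the gene with most UMIs are the same alternative wherever *Vamp2* had most, so that 1 reversal (day 3) is counted under both. Of further values, 6 stayed and 18 moved. Without *Vamp2*, microglia-like over endothelial-like cells gave 1.21 in the sham library and 1.56 on day 3. Per cell the ratio was 0.977, 0.874 and 1.13 on days 1, 3 and 7. Against the mean of all non-neuronal classes, a mean whose classes differed between libraries, it was 0.394, 0.318, 0.204 and 0.649 (sham to day 7). With clusters it was 0.761 on day 1 and 0.937 on day 7, and on day 1 it was 0.471 without the gene limit and 0.657 as a mean of per-cell CPM.

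Mature neuron-like cells over sham gave 1.25 on day 1 and 1.25 on day 7 without the gene limit, and 1.06 on day 7 with clusters. On day 1 the ratio was 1.42 without doublets, 1.41 as a mean of per-cell CPM and 1.69 without the gene with most UMIs, which gave 0.584 on day 3. Microglia-like cells over sham gave 0.775 on day 1 without the gene limit, 0.375 on day 3 as a mean of per-cell CPM, and without *Vamp2* 0.289 on day 3 and 0.461 on day 7.

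The neuronal share without the gene limit was 43.2%, 62.5% and 32.7% (sham, day 1, day 7). Clusters gave 26.9%, 48.7%, 13.1% and 4.80%, and leaving out the gene with most UMIs gave 16.7%, 37.1%, 9.27% and 2.31%. A looser gate gave 22.4% (sham) and 41.9% (day 1), and a stricter one 37.6% on day 1. A 5% mitochondrial limit gave 30.6% on day 1 and 2.49% on day 7, and left no mature neuron-like cell on day 7. Without doublets day 1 gave 46.1%. The values without *Vamp2* outside neurons and per cell were chosen after seeing the data, and the cause of these shifts was not tested. No paired analysis was possible because each group has 1 library. With 1 CPM added in place of 10, the counts of the 8 genes past 2-fold differed in several classes, as endothelial-like cells on day 3 over sham went from 1 to 6 below. With a minimum of 50 UMIs none of the 8 passed 2-fold in microglia-like over endothelial-like cells in any library. Depth limits the microglia-like sums, which rest on 50 to 273 UMIs.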

Other observations

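Barcodes removed for over 10% mitochondrial UMIs held the 8 genes at 276 CPM in the sham library (1127 barcodes), 1978 on day 1 (883), 227 on day 3 (437) and 219 on day 7 (1136). In each library the level in these barcodes was above that of the kept cells, which had 225, 497, 162 and 161 CPM from sham to day 7.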
